A study of Mus musculus with 5 samples.

Results

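The 48 genes described here encode proteins that copy DNA in S phase: origin licensing factors, the MCM helicase, Cdc45 and the GINS complex, primase and the replicative polymerases, the sliding clamp and its loader, single-strand binding protein, enzymes that finish Okazaki fragments, enzymes that supply nucleotides, and factors that rebuild and mark chromatin. They were listed by gene symbol, with earlier results of these data known, and all 48 were found among the 23234 genes of the table. The study asked how B cell receptor signalling acts on germinal centre selection by removing Csk, the kinase that holds Src family kinases inactive by phosphorylating their tail. Naive donor B cells of genotype Csk(+/+) or Csk(fl/fl), all of them ERT2cre(KI/+), B1-8hi(KI/+) and CD45.1/2, were transferred into C57BL/6J hosts that were immunized intraperitoneally with NP-CGG in alum on day 0. ERT2cre is a Cre recombinase that works only in the presence of tamoxifen, and B1-8hi is a heavy chain that gives B cells a receptor for the hapten NP. Both groups received tamoxifen on days 8 and 9, and NP-binding donor light zone B cells were sorted from spleen on day 11. RNA from about 10000 sorted cells made each library, 3 of them labelled Csk(+/+) and 2 labelled Csk(f/f). The submitters call them biological replicates, but the labels do not give the animals behind each library, the floxed exons, the locus that carries ERT2cre or the share of cells that recombined.

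A cell licenses its replication origins in G1, when the origin recognition complex, Cdc6 and Cdt1 load MCM rings onto DNA. In S phase Cdc45 and GINS turn each ring into an active helicase, polymerase alpha with primase starts each strand, and polymerases delta and epsilon extend it on the PCNA clamp. Many of these genes are transcribed together late in G1 under E2F factors. Germinal centre B cells are among the fastest dividing cells of the body. They divide mostly in the dark zone, while the light zone holds cells that take up antigen, meet T cell help and may re-enter the cycle.

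The libraries held an estimated 9500000 to 23600000 fragments. Csk itself read 378, 436 and 415 FPKM (fragments per kilobase of transcript, scaled to library size) in Csk(+/+) replicates 1, 2 and 3, and 453 and 476 FPKM in Csk(f/f) replicates 1 and 2. The targeted transcript was thus not reduced under the Csk(f/f) label (log2 difference 0.18 ± 0.14 SE, limma adjusted p = 0.439, and -0.14, adjusted p = 0.818, after the GC correction described below), and directions below rest on the labels alone. Among the marker lists, the 5 B cell genes summed to 2864 to 4018 FPKM in Csk(+/+) and 3760 to 4019 FPKM in Csk(f/f)-labelled libraries, and the 5 light zone genes to 760 to 799 and 859 to 890 FPKM. Within the light zone list Cd83 (379 to 403 against 487 to 515 FPKM) and Egr3 (3.64 to 7.71 against 9.62 to 11.3 FPKM) were higher. Cd86 (73.2 to 80.5 against 56.9 to 63.4 FPKM) and Bcl2a1b (118 to 145 against 99.6 to 111 FPKM) were lower, and Nfkbia overlapped. The 3 measured dark zone genes summed to 94.5 to 105 and 91.5 to 96.3 FPKM. Among them Polh was lower (24.7 to 29.7 against 18.3 to 19.2 FPKM), while Cxcr4 and Foxp1 overlapped. The 6 measured germinal centre genes summed to 701 to 718 and 735 to 761 FPKM. Of these, S1pr2 (141 to 182 against 192 to 217 FPKM) and Mef2b (322 to 373 against 382 to 393 FPKM) were higher. Bcl6 (60.1 to 81.7 against 55.6 to 59.2 FPKM) and Fas (57.5 to 69.1 against 51.9 to 55.1 FPKM) were lower. Mybl1 (16.1 to 23.3 against 7.78 to 11.6 FPKM) and Gcet2 (42.1 to 54.1 against 32.5 to 39.1 FPKM) were lower too. The 5 plasma cell genes summed to 93.1 to 102 and 120 to 130 FPKM, with 3 of them under 1 FPKM in every library. The 7 T cell genes summed to 161 to 193 and 162 to 176 FPKM, nearly all of it from Lck (105 to 122 FPKM over the 5 libraries) and Cd2 (53.4 to 71.1 FPKM), while Cd3e and Cd3g were listed at 0 in every library and 5 of the 7 were under 1 FPKM. Erythroid genes were present without a split by group (238 to 1253 and 269 to 685 FPKM), neutrophil genes summed to at most 2.71 FPKM, and macrophage genes summed to 2.89 to 8.64 and 11.6 to 13.7 FPKM, with 6 of the 7 under 1 FPKM in every library. The part of these levels in the results below was not tested. Csk(+/+) replicate 3 stood apart, with an array weight of 0.259 where every other library had at least 1.35, so results that rest on it are also given without it. The weights come from the spread within groups in the same fit, so the 2 Csk(f/f)-labelled libraries get equal weights and neither could stand apart from the other. Leaving out a library chosen by this spread itself narrows the spread, so lower p-values without it are no separate support.

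No replication gene passed an adjusted p under 0.05 in the comparison of Csk(f/f)-labelled with Csk(+/+) libraries. All 48 were above the filter on low values, and of the 10242 genes tested 4 passed as lower (0.0391%) and 4 as higher (0.0391%). At an unadjusted p under 0.05, 11 of the 48 were lower in the Csk(f/f)-labelled libraries, 22.9% beside 13.6% of all genes tested, and 1 was higher, 2.08% beside 8.07%. The 11 were Orc2, Mcm4, Gins1, Pola1, Prim1, Pold3, Pcna, Rfc1, Rrm1, Rrm2 and Slbp, and the 1 was Pold1. The lowest adjusted p among the 48 was 0.128, for Mcm4. Both Csk(f/f)-labelled libraries lay below all 3 Csk(+/+) libraries for 22 of the 48 genes, 45.8% beside 24.5% of all genes, and above them for 5, 10.4% beside 20.7%. The groups overlapped for the other 21. The median log2 difference of the 48 was -0.09, beside -0.01 for all genes tested, with 32 genes below 0 and 16 above.

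**Figure D1:**
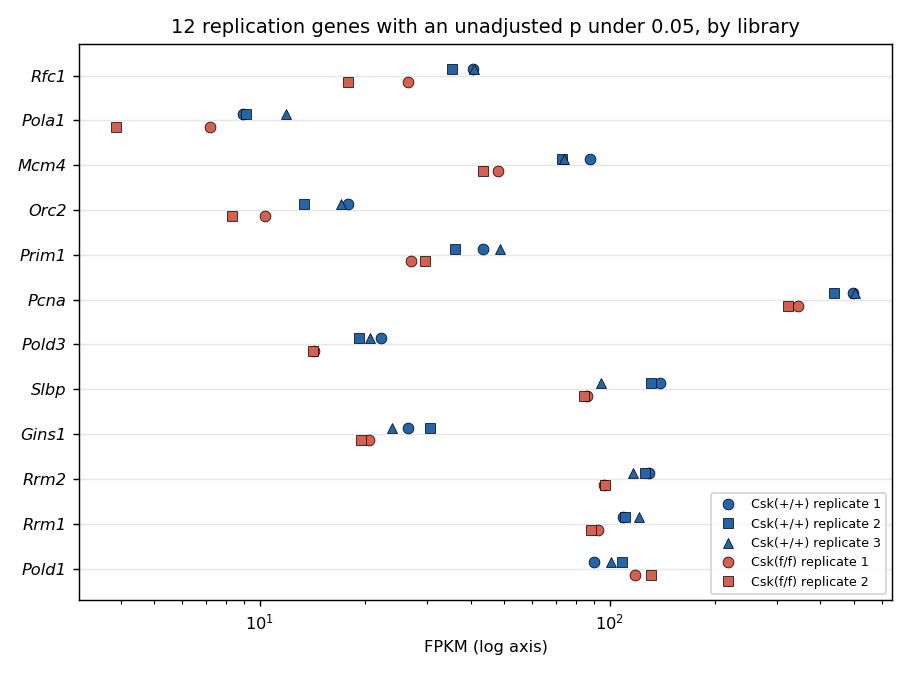
FPKM (log axis) of the 12 replication genes with an unadjusted p under 0.05, 1 point per library, blue for Csk(+/+) and red for Csk(f/f)-labelled libraries. For 11 genes both red points lie below all blue points, and for Pold1 both lie above them, while none of the 12 passed after adjustment over all genes.

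Replication genes were abundant, and varied less between the Csk(+/+) libraries than all genes tested. Their median level over all 5 libraries was 64.2 FPKM beside 12.4 FPKM for all genes tested, 15 of them were above 100 FPKM and 3, Orc1, Gins3 and Pola1, were under 10 FPKM. Their median coefficient of variation over the 3 Csk(+/+) libraries was 9.25%, beside 16.5% for all genes tested, which were not matched to them for level. The median standard error of a log2 difference was 0.14, and for 21 of the 48 the 95% confidence interval lay within 0.5 of 0 on either side. In bulk RNA, fewer cells in S phase and less replication mRNA per cell cannot be told apart.

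The differences followed the base composition of the transcripts. Spearman's rho between the log2 difference and the GC content of the longest annotated transcript was 0.74 across the 48 genes, a description over genes that share the same 5 libraries, and 0.71 across the 10111 tested genes with a GC value. All 18 replication genes with a GC content under 47% were lower in the Csk(f/f)-labelled libraries, against 8 of the 20 with a GC content over 50%. The cut at 47% falls just below Pola2 (47.05%), which was higher (log2 difference 0.23), and genes between the 2 cuts are in neither count. The same split was not counted over all genes tested. Within single libraries, rho between a gene's deviation from its mean and GC content was -0.56, -0.21 and -0.41 in Csk(+/+) and 0.54 and 0.66 in Csk(f/f)-labelled libraries. A correction that subtracts each library's GC trend left rho at -0.10 across the 48 genes and their median log2 difference at -0.07. It changed the sign of 17 of the 48. After it, 5 genes were lower at an unadjusted p under 0.05, 10.4% beside 5.07% of the genes tested: Orc2, Gmnn, Mcm4, Pold3 and Rfc1. Pola2 was the 1 gene higher, 2.08% beside 4.91%. None of the 48 passed after adjustment, beside 0.0396% of the genes tested as lower and 0.0396% as higher. Both Csk(f/f)-labelled libraries then lay below all Csk(+/+) libraries for 14 of the 48 genes, 29.2% beside 13.9% of all genes. They lay above them for 4, 8.33% beside 14.6%. Whether the GC trend arose in the libraries or in the cells was not tested. Values below are as deposited unless they are said to be corrected.

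**Figure D2:**
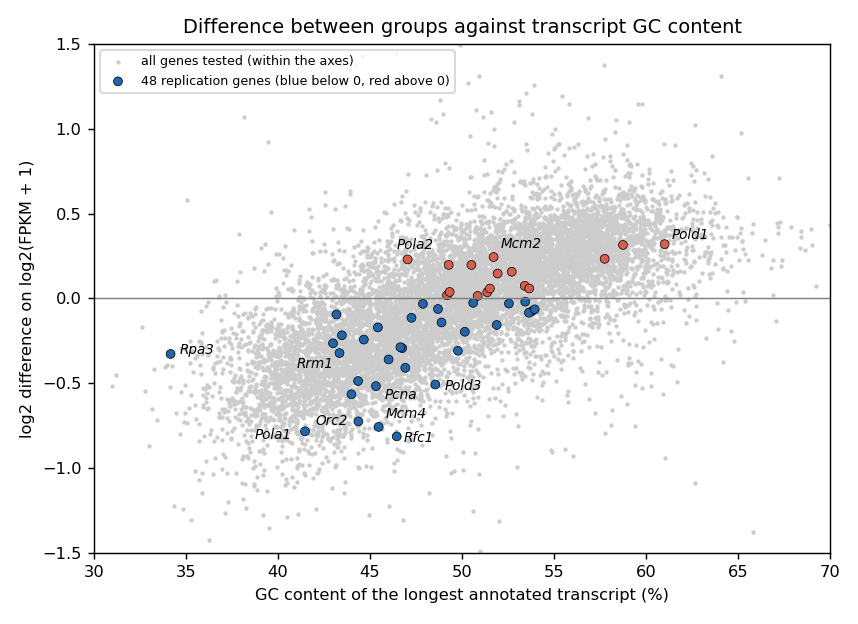
Log2 difference (Csk(f/f)-labelled minus Csk(+/+), log2(FPKM + 1), vertical axis) against transcript GC content in percent (horizontal axis), with the 48 replication genes in colour over all tested genes in grey. The replication genes rise with GC content as the grey cloud does (rho 0.74 and 0.71), from Pola1 at 41.5% GC to Pold1 at 61.0% GC.

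Of the 6 origin licensing genes, 4 were below 0 and 2 above, with a median log2 difference of -0.23. Orc2 encodes a core subunit of the origin recognition complex. It measured 17.8, 13.4 and 17.0 FPKM in Csk(+/+) and 10.3 and 8.31 FPKM in Csk(f/f)-labelled libraries. The groups did not overlap, and the log2 difference was -0.73 ± 0.19 SE (limma adjusted p = 0.155), or -0.43 after GC correction. Its annotated exons share 1150 bases with Nif3l1 on the other strand, and the strand setting of the counting is not given in the sources used here. Gmnn encodes geminin, which binds Cdt1 and blocks a second licensing in the same cycle. Its values were 87.9, 72.4 and 66.5 against 59.9 and 60.9 FPKM, again without overlap. The log2 difference of Gmnn was -0.31 ± 0.15 SE (adjusted p = 0.265) and stayed at -0.31 after GC correction. Cdt1, the licensing factor that geminin inhibits, lay the other way, at 44.8, 45.7 and 40.0 against 52.5 and 50.1 FPKM. With GC correction its log2 difference moved from 0.23 to -0.06. Orc1 (mean 6.27 ± 1.45 SD, n = 3, against 4.86 ± 0.35 FPKM, n = 2) and Cdc6 (19.1 ± 1.40 against 19.4 ± 1.44 FPKM) overlapped between groups. Orc6 did not overlap but differed little, at 33.4 ± 2.45 against 29.5 ± 1.88 FPKM (log2 difference -0.17).

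The MCM proteins form the ring of the replicative helicase from 6 different subunits, Mcm2 to Mcm7. Mcm4 stood apart from the other subunits. It measured 87.7, 72.9 and 73.8 FPKM in Csk(+/+) and 47.99 and 43.4 FPKM in Csk(f/f)-labelled libraries. Both Csk(f/f)-labelled values lay far below the lowest Csk(+/+) value, with a log2 difference of -0.76 ± 0.14 SE (adjusted p = 0.128). After GC correction it was -0.52, the lowest of the MCM genes, with an adjusted p of 0.352. Without Csk(+/+) replicate 3 the log2 difference was -0.80 and the limma adjusted p 0.031. In that comparison 283 of 10147 genes passed as lower (2.79%) and 128 as higher (1.26%). Mcm4 kept an unadjusted p under 0.05 in each of the 5 fits that left out 1 library, between -0.83 and -0.67 on the log2 scale.

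None of the other ring subunits had an unadjusted p under 0.05. Mcm2 measured 135, 148 and 127 FPKM in Csk(+/+) and 159 and 164 FPKM in Csk(f/f)-labelled libraries, higher without overlap (log2 difference 0.24 ± 0.13 SE, adjusted p = 0.289, and 0.14 after GC correction). Mcm5, the most abundant of the MCM genes, measured 199, 212 and 262 against 257 and 236 FPKM, with overlap. Mcm6 measured 234, 222 and 215 against 204 and 209 FPKM, just below the Csk(+/+) range. Their log2 differences were 0.15 for Mcm5 and -0.11 for Mcm6, both with standard errors of at least 0.12, and 0.03 for each after GC correction. Mcm3 averaged 201 ± 3.64 SD and 197 ± 9.41 FPKM and Mcm7 221 ± 13.1 and 233 ± 8.38 FPKM. Mcm10, which is no ring subunit but helps start the helicase and hold polymerase alpha, averaged 24.6 ± 1.64 and 23.5 ± 0.29 FPKM. The ratio of Mcm4 to Mcm2 FPKM was 0.650, 0.493 and 0.581 in Csk(+/+) and 0.302 and 0.264 in Csk(f/f)-labelled libraries. The ratio of Mcm6 to Mcm7 was 1.12, 1.01 and 0.912 against 0.853 and 0.921. The groups also overlapped for the ratios of Rrm2 to Rrm1 and of Chaf1a to Chaf1b, which are not drawn. All pairs were picked after the values were seen, so their ratios describe the libraries and carry no test. How often other gene pairs separate the groups was not counted.

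**Figure D3:**
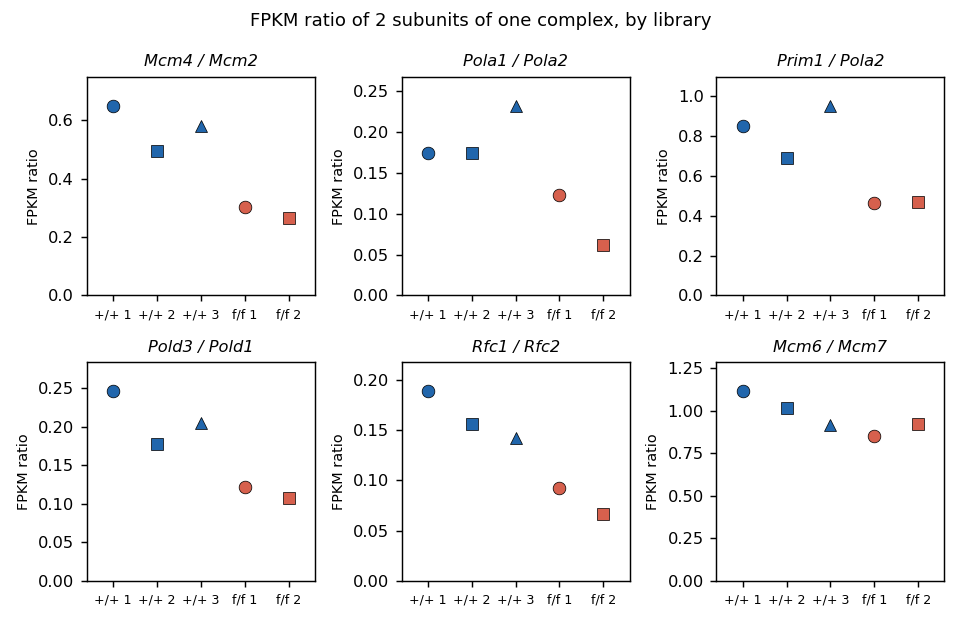
FPKM ratio of 2 subunits of one complex (vertical axes from 0) in each of the 5 libraries, blue for Csk(+/+) and red for Csk(f/f)-labelled. Red points lie below all blue points for Mcm4/Mcm2, Pola1/Pola2, Prim1/Pola2, Pold3/Pold1 and Rfc1/Rfc2, and reach into the blue range for Mcm6/Mcm7 (0.853 and 0.921 against 0.912 to 1.12).

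The promoters of Mcm3, Mcm5, Mcm6 and Mcm7 hold words bound by E2F factors, and those of Mcm5 and Mcm6 are shown because 2 matches overlap in each. RefSeq promoter windows on GRCm38.p6 run from 250 bases before to 50 after a start, and 49 windows matched 40 of the 48 genes. Gmnn, Mcm4, Gins1, Gins2, Gins4, Prim2, Pole and Rfc2 had no entry. The words searched, on both strands, were TTTCCCGC, TTTGGCGC, TTTCGCGC and TTTGCCGC, and overlapping matches were all kept. In the 2 stretches of 100 bases below, written 5′ to 3′ along the gene, the capitals mark the matches. The Mcm6 stretch is chr1:128359762-128359861 on the minus strand, with matches at positions -110 and -106 from the start, and 1 more match at -47 lies outside it. The Mcm5 stretch is chr8:75109314-75109413 on the plus strand, with matches at -153 and -149.
Mcm6: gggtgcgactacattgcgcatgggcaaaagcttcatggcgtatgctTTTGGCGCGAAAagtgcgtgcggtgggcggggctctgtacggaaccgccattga
Mcm5: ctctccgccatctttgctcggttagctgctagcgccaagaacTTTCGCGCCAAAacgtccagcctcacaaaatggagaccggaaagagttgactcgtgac

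At least 1 such word lay in 16 of the 49 windows of replication genes (32.7%), beside 744 of all 32851 windows (2.26%) and 1 of 31 windows of mitosis genes. Windows of other replication factors held one in 13 of 44 (29.5%). The CHR words TTTGAA and TTCGAA, known from mitosis promoters, were in 8 of 49 windows (16.3%), beside 19.2% of all windows and 25 of 31 windows of mitosis genes (80.6%). CCAAT was in 30 of 49 (61.2%), beside 37.4% of all windows and 26 of 31 of mitosis genes (83.9%). The letters did not sort the replication genes by their difference between groups. The 16 genes with an E2F word had a median log2 difference of -0.05 (10 below 0), and the 24 with a window and no such word -0.16 (16 below 0). After GC correction the medians were -0.08 and -0.04. A match is a description of the letters and says nothing of binding in these cells.

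Cdc45 and the 4 GINS subunits, which join the MCM ring to make the moving helicase, had a median log2 difference of -0.02. Gins1 measured 26.5, 30.6 and 23.9 FPKM in Csk(+/+) and 20.5 and 19.5 FPKM in Csk(f/f)-labelled libraries. The groups did not overlap, with a log2 difference of -0.41 ± 0.15 SE (adjusted p = 0.206) and of -0.25 after GC correction. Cdc45 lay above instead, at 46.9, 43.1 and 42.6 against 51.3 and 50.3 FPKM. Its log2 difference was 0.20 ± 0.12 SE (adjusted p = 0.360) and 0.23 after GC correction, so that the 2 genes kept opposite signs. The other 3 GINS genes overlapped between groups. Gins3, among the lowest of the 48, measured 7.51, 7.58 and 6.25 against 6.08 and 7.84 FPKM. Gins2 averaged 43.7 ± 8.76 SD against 42.7 ± 3.95 FPKM, and Gins4 averaged 38.9 ± 3.59 against 39.3 ± 3.95 FPKM. Gins2 shares 2758 exon bases with Gse1 on the other strand.

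The subunits of polymerase alpha and of polymerase delta lay on both sides of 0, while both subunits of primase were below 0 as deposited. The polymerase epsilon genes Pole and Pole2 were below 0 too, Pole by less than its error (log2 difference -0.03 ± 0.16 SE). Pola1 is the catalytic subunit of polymerase alpha, which lays the first DNA on each primer. It measured 8.97, 9.15 and 11.8 FPKM in Csk(+/+) and 7.22 and 3.89 FPKM in Csk(f/f)-labelled libraries. No values overlapped, but the Csk(f/f)-labelled libraries differed by nearly as much from each other as from Csk(+/+), with a log2 difference of -0.78 ± 0.26 SE (adjusted p = 0.179) and of -0.37 after GC correction. Without Csk(f/f) replicate 2 it was -0.41, and Pola1 then had an unadjusted p over 0.05. Prim1, the catalytic subunit of primase, measured 43.5, 36.1 and 48.5 against 27.1 and 29.6 FPKM. Its log2 difference was -0.57 ± 0.16 SE (adjusted p = 0.159), or -0.25 after GC correction. Pola2 holds polymerase alpha and primase together, and it was higher, at 51.6 ± 0.79 SD against 60.7 ± 3.18 FPKM. The log2 difference of Pola2 was 0.23 (adjusted p = 0.291) and grew to 0.38 after GC correction (adjusted p = 0.434). Prim2, the large primase subunit, averaged 19.4 ± 0.92 against 16.0 ± 0.39 FPKM, a log2 difference of -0.26 that turned to 0.09 with the correction. The ratio of Pola1 to Pola2 was 0.175, 0.174 and 0.232 in Csk(+/+) and 0.124 and 0.062 in Csk(f/f)-labelled libraries, and that of Prim1 to Pola2 was 0.847, 0.687 and 0.951 against 0.463 and 0.470.

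Polymerase delta makes most of the lagging strand, and its subunits differed in the same manner. Pold3, an accessory subunit, measured 22.2, 19.2 and 20.6 FPKM in Csk(+/+) and 14.3 and 14.2 FPKM in Csk(f/f)-labelled libraries. Without overlap, its log2 difference was -0.51 ± 0.15 SE (adjusted p = 0.161), and -0.44 after GC correction. Pold1, the catalytic subunit, measured 90.2, 108 and 101 against 118 and 132 FPKM. The log2 difference of Pold1 was 0.32 ± 0.13 SE (adjusted p = 0.227), and the GC correction took it to -0.01. Pold2, a second accessory subunit, averaged 78.1 ± 11.8 SD against 96.8 ± 7.58 FPKM with overlap, and its log2 difference went from 0.32 to 0.0041. The 3 transcripts differ in composition, with a GC content of 48.5% for Pold3, 61.0% for Pold1 and 58.7% for Pold2. In the polymerase that copies the leading strand, the catalytic gene Pole averaged 23.5 ± 3.22 against 23.0 ± 1.98 FPKM, and Pole2 averaged 23.0 ± 1.48 against 19.3 ± 1.34 FPKM.

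Promoters of 3 polymerase genes are shown because the genes lay on opposite sides of 0 while each held 1 match to an E2F word near its start. The stretches of 100 bases are again from RefSeq windows on GRCm38.p6, written along the gene with the match in capitals. All 3 genes are on the minus strand, Pola1 at chrX:93632240-93632339, Pold3 at chr7:100121453-100121552 and Pold1 at chr7:44548766-44548865. The match lies at position -138 from the start in Pola1, at 18 in Pold3 and at 40 in Pold1.
Pola1: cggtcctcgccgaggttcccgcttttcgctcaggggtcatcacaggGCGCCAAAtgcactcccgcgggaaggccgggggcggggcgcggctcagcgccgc
Pold3: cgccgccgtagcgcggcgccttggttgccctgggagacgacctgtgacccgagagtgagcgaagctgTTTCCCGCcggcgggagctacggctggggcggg
Pold1: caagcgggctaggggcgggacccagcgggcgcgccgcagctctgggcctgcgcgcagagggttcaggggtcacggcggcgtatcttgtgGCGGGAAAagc
In Pola1 and Pold1 the word reads on the strand opposite to the gene, and in Pold3 on the gene's own strand.

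The sliding clamp and its loader included the highest and one of the most divided of the 48 genes. Pcna encodes the ring that tethers polymerases to DNA and had the highest mean level of the 48. It measured 496, 436 and 504 FPKM in Csk(+/+) and 345 and 322 FPKM in Csk(f/f)-labelled libraries. The gap between the groups was wider than the range within either, with a log2 difference of -0.52 ± 0.14 SE (adjusted p = 0.155) and of -0.27 after GC correction. Rfc1, the large subunit of the complex that opens and loads the clamp, had the lowest log2 difference of the 48. Its values were 40.8, 35.4 and 41.0 against 26.5 and 17.8 FPKM. The log2 difference was -0.81 ± 0.19 SE (adjusted p = 0.154), and at -0.63 it was also the lowest of the 48 after GC correction (adjusted p = 0.420). Rfc1 kept an unadjusted p under 0.05 in each fit that left out 1 library, between -1.09 and -0.54 on the log2 scale. The small loader subunits did not share this. Rfc4 measured 51.3, 51.2 and 57.9 against 49.4 and 42.4 FPKM (log2 difference -0.22, and 0.12 after GC correction). Rfc2, Rfc3 and Rfc5 overlapped between groups, at 244 ± 39.2 SD against 278 ± 11.0 FPKM for Rfc2, 76.0 ± 7.79 against 70.9 ± 2.43 FPKM for Rfc3 and 86.5 ± 13.6 against 88.0 ± 0.32 FPKM for Rfc5. The ratio of Rfc1 to Rfc2 was 0.189, 0.156 and 0.142 in Csk(+/+) and 0.093 and 0.066 in Csk(f/f)-labelled libraries. Rfc2 shares 952 exon bases with Lat2 on the other strand.

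The RPA genes encode the 3 subunits of the protein that coats unwound single strands. Rpa1, the large subunit, measured 129, 145 and 141 FPKM in Csk(+/+) and 123 and 128 FPKM in Csk(f/f)-labelled libraries. Rpa2 overlapped, at 59.3, 58.2 and 69.3 against 68.1 and 61.4 FPKM. Rpa3 measured 89.0, 64.9 and 89.9 against 63.6 and 64.2 FPKM, so that Csk(+/+) replicate 2 lay beside both Csk(f/f)-labelled values. With the lowest GC content of the 48, 34.2%, Rpa3 moved from a log2 difference of -0.33 ± 0.17 SE (adjusted p = 0.288) to 0.28 with the GC correction. Fen1, which trims the flap of an Okazaki fragment, measured 92.2, 85.1 and 85.2 against 80.4 and 85.7 FPKM. Lig1, which seals the nick that remains, was the steadiest of these, at 116, 118 and 118 against 109 and 112 FPKM. Their log2 differences were -0.07 and -0.08 (adjusted p = 0.722 and 0.672), and -0.26 and -0.27 after GC correction.

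All 5 nucleotide supply genes were below 0, and 4 of them without overlap between groups, where 24.5% of all genes did the same. After GC correction 3 of the 5 lay below all Csk(+/+) libraries, beside 13.9% of all genes, and Rrm1 stood at 0.02. Ribonucleotide reductase, which makes deoxyribonucleotides, is built from Rrm1 and the S phase subunit Rrm2. Rrm2 measured 129, 126 and 117 FPKM in Csk(+/+) and 96.0 and 96.9 FPKM in Csk(f/f)-labelled libraries (log2 difference -0.36 ± 0.12 SE, adjusted p = 0.179). Rrm1 measured 109, 110 and 121 against 92.8 and 88.3 FPKM (log2 difference -0.32 ± 0.12 SE, adjusted p = 0.204). The reductase pair thus differed by about the same amount as deposited, but after GC correction Rrm2 stood at -0.15. Tyms, thymidylate synthase, measured 19.8, 16.6 and 17.1 against 14.9 and 13.9 FPKM (log2 difference -0.29, adjusted p = 0.302, and -0.11 after GC correction), and a processed copy of it, Tyms-ps, is in the table and can share its reads. Dut, which keeps uracil out of DNA, averaged 86.6 ± 3.29 SD against 75.4 ± 4.12 FPKM. Tk1, the S phase thymidine kinase, averaged 86.7 ± 10.5 against 77.3 ± 2.95 FPKM and overlapped. Dut and Tk1 stood at -0.22 and -0.27 after GC correction.

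Of the 5 chromatin genes, Slbp was the only one with an unadjusted p under 0.05. Its protein binds the stem loop at the end of histone mRNAs and controls their S phase use. It measured 139, 131 and 94.3 FPKM in Csk(+/+) and 86.2 and 84.3 FPKM in Csk(f/f)-labelled libraries. Csk(+/+) replicate 3 lay nearer to the Csk(f/f)-labelled libraries than to its own group, and the log2 difference was -0.49 ± 0.18 SE (adjusted p = 0.201). Without that library it was -0.66 with a limma adjusted p of 0.031, and after GC correction with all libraries it was -0.19. Uhrf1, which reads half-methylated DNA behind the fork, measured 154, 167 and 138 against 154 and 164 FPKM. Dnmt1, the methyltransferase it recruits, averaged 133 ± 22.8 SD against 127 ± 22.8 FPKM. The large chromatin assembly subunit Chaf1a measured 46.5, 48.7 and 34.6 against 43.4 and 52.7 FPKM, and 4648 of its annotated exon bases overlap Ubxn6 on the other strand. Chaf1b averaged 40.6 ± 7.33 against 41.3 ± 2.64 FPKM. All 4 overlapped between groups, with log2 differences from -0.06 to 0.16.

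**Figure D4:**
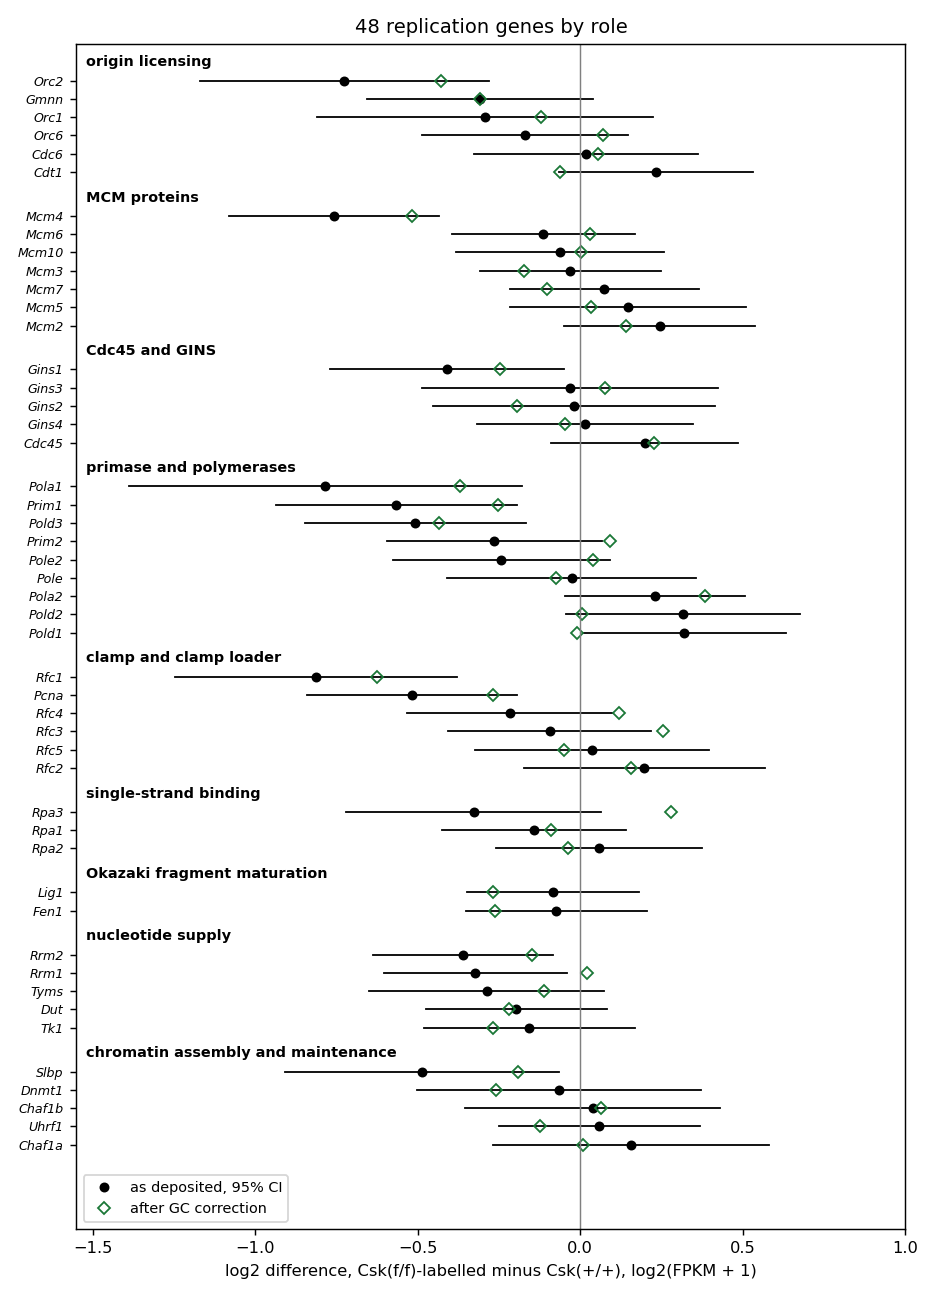
Log2 difference of each of the 48 replication genes (Csk(f/f)-labelled minus Csk(+/+), log2(FPKM + 1)), by role, as deposited (black points with 95% confidence interval) and after GC correction (green diamonds). Intervals of 12 genes leave out 0 before adjustment, and the correction moves 17 of the 48 across 0, while Rfc1, Mcm4, Pold3 and Orc2 stay at -0.43 or lower.

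How far these counts rest on single libraries was also measured. Without Csk(+/+) replicate 3, 12 of the 48 were lower at an unadjusted p under 0.05, 25% beside 21.4% of all genes. Another 4 were higher, Mcm5, Pold1, Pold2 and Rfc2, 8.33% beside 13.3%. The 12 held all 11 genes named above and Gmnn. Mcm4 and Slbp passed as lower after adjustment in that comparison, beside 2.79% of all genes as lower and 1.26% as higher. Without Csk(f/f) replicate 1, 5 genes were lower, 10.4% beside 10.3% of all genes, and none was higher, beside 2.78%. Without Csk(f/f) replicate 2, 3 were lower, Mcm4, Prim1 and Rfc1, 6.25% beside 3.66%, and none was higher, beside 1.52%. None of the 48 passed after adjustment in these 2 comparisons. When Csk(+/+) replicate 3 was left out and the GC trend was also subtracted, 8 of the 48 were lower, beside 9.86% of all genes. In that fit 5 of the 48 were higher, beside 10.6% of all genes. None of the 48 passed after adjustment, beside 0.239% of all genes as lower and 0.16% as higher. The 8 were Orc2, Gmnn, Mcm4, Pold3, Rfc1, Lig1, Slbp and Dnmt1.

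The rest of the replication machinery, 47 tested factors outside the 48, included 19 genes lower at an unadjusted p under 0.05 and none higher, 40.4% beside 13.6% of all genes, and none passed after adjustment. Their median log2 difference was -0.36, and -0.19 after GC correction, when 6 were lower, 12.8% beside 5.07%. Their transcripts had a median GC content of 46.1% beside 49.0% for the 48. The smallest p belonged to Hat1, a histone acetyltransferase (log2 difference -0.66), Nasp, a histone chaperone (-0.65), Dbf4, the activating subunit of the Cdc7 kinase that fires origins (-0.68), and Hells, a chromatin remodeller (-1.03). After GC correction they stood at -0.36, -0.16, -0.20 and -0.51. Of 21 genes of E2F and G1/S control, 5 were lower, 23.8% beside 13.6% of all genes, and 1 higher, 4.76% beside 8.07%, with a median of -0.19. The 1 was E2f1 (log2 difference 0.39, and 0.08 after GC correction). After GC correction 4 were lower, 19.0% beside 5.07%, and none higher, with a median of -0.11. The 4 were Fbxo5, Ccna2, E2f8 and Cdkn1a, the last at -0.50 as deposited and -0.70 after GC correction. Fbxo5, the inhibitor of the anaphase promoting complex that protects geminin and cyclin A, measured 19.4, 15.4 and 16.2 FPKM in Csk(+/+) and 9.33 and 6.83 FPKM in Csk(f/f)-labelled libraries (log2 difference -0.99, adjusted p = 0.135, and -0.73 after GC correction). Ccna2, the S phase cyclin A, stood at -0.56, Rbl1, the E2F partner p107, at -0.60 and Ccne2, a cyclin E, at -0.80. After GC correction they stood at -0.36, -0.21 and -0.25, and Rbl1 and Ccne2 then had an unadjusted p over 0.05.

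Mitosis genes, which act after replication in the same cycle, lay further below 0 than the 48 replication genes. At an unadjusted p under 0.05, 24 of 32 were lower and none higher, 75.0% beside 13.6% of all genes, with a median log2 difference of -0.50. After GC correction 19 of the 32 were lower, 59.4% beside 5.07% of all genes, with a median of -0.41. The 48 replication genes then had 5 lower and a median of -0.07. None of the 32 passed after adjustment over all genes. The 4 with the smallest p were Prc1 (-0.84), Kif23 (-0.97), Kif11 (-1.03) and Nusap1 (-0.88), all of the spindle or the midzone. After GC correction they stood at -0.50, -0.78, -0.64 and -0.48. The median GC content of their transcripts was 47.8%, beside 46.1% for the other replication factors and 49.0% for the 48. In single libraries, the median deviation of the mitosis genes from their means was 0.14, 0.12 and 0.28 in Csk(+/+) and -0.25 and -0.37 in Csk(f/f)-labelled libraries, and that of the 48 replication genes was 0.07, 0.03 and 0.07 against -0.08 and -0.05. The difference between the lists was not tested.

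**Figure D5:**
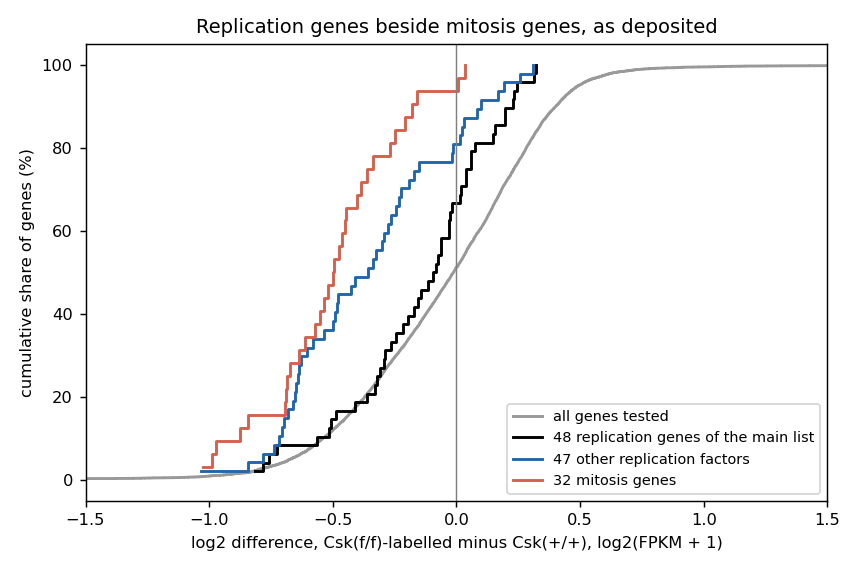
Cumulative share of genes (percent, vertical axis) at or below each log2 difference (Csk(f/f)-labelled minus Csk(+/+), log2(FPKM + 1), horizontal axis). The 48 replication genes (black, median -0.09) run close to all tested genes (grey, median -0.01), with the other replication factors (blue, median -0.36) and the mitosis genes (red, median -0.50) to the left.

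Of the 48 genes, 4 lie on chromosome 7, which also holds several of the genes that passed after adjustment: Lig1, Pold1, Pold3 and Rrm1. Rrm1 is separated by 6 tested genes from Trim12a (log2 difference -3.59, adjusted p = 0.00107) and by 12 from Inppl1 (1.86, adjusted p = 0.033), and Pold3 by 15 from Inppl1. Tested genes beside them lay on both sides of 0, such as Lipt2 (1.00) next to Pold3 and Stim1 (0.47) and Trim21 (-0.56) on either side of Rrm1.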

How the data were processed

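RNA sequencing covered 5 libraries of sorted light zone B cells. Per the submitters' processing notes, TopHat2 2.0.8, Cufflinks 2.1.1 and the mm9 genome were used; the deposited values, 1 column per library, were taken as FPKM per gene made by the authors, from those tools and the values. Annotation, strand setting and scaling between libraries are not given in the sources used here. The table held 23234 genes, and 1 repeated header line was left out. FPKM keep no counts, so depth was estimated from the steps between low values of transcripts of at least 1500 nt, and p-values measure the spread between these libraries.

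Genes reaching 1 FPKM in 2 or more libraries (10242) were tested on log2(FPKM + 1), Csk(f/f) minus Csk(+/+), with limma 3.58.1 in R 4.3.3 (trended prior, Benjamini-Hochberg over all genes tested); the pseudocount of 1 understates the change of low genes. The script was tested on simulated data. For the GC correction, a lowess curve (span 0.3) was drawn per library through the genes' deviations from their means, ordered by GC content, and subtracted; GC content was that of the longest GENCODE transcript on GRCm38, known by symbol for 10111 genes (98.7%). Alternatives were pseudocounts of 0.1 and 5, a filter at 5 FPKM or none, median-ratio and quantile scaling, array weights, a block on replicate number, and 1 library left out at a time.

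The 48 genes, the lists and the markers were chosen with earlier results of these data known. Values per library are given, in each of 9 roles, for the 3 genes with the smallest p and the most abundant gene, and from each other list up to 4 genes with the smallest p. Pola2, E2f1, E2f8, Cdkn1a, Lipt2, Stim1, Trim21, the chromosome 7 genes and the subunit pairs were picked after their values were seen.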

Additional observations from a re-analysis of the deposited data

How the results depend on the processing

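Precision is set by the number of libraries, and the fewest estimated fragments behind any of the 48 genes, 146 for Orc1, give a counting error of 8.27%. No replication gene passed at a pseudocount of 0.1 or 5, with no filter or a filter at 5 FPKM, under median-ratio or quantile scaling, or after GC correction. With array weights 5 passed as lower (Mcm4, Pcna, Rfc1, Rrm2 and Slbp), where 477 of the 10242 genes tested passed as lower and 194 as higher. Leaving out 1 Csk(+/+) library gave 0 to 2. The 2 came without replicate 3, as lower, where 2.79% of all genes passed as lower. The count of genes passing over the whole table, 8, was 5 with no filter, 671 with array weights, 5 to 411 with 1 library left out, and 40 with GC correction and no Csk(+/+) replicate 3. The 11 genes lower at an unadjusted p under 0.05 were 5 after GC correction and 3 to 12 with 1 library left out. The 1 gene higher became 2 with no filter, 0 under median-ratio or quantile scaling, 3 with array weights, 5 with GC correction and no Csk(+/+) replicate 3, and 0 to 4 with 1 library left out. The 19 other replication factors that were lower became 6 after GC correction and 8 to 25 with 1 library left out, and the 24 mitosis genes 7 to 23. Over all genes tested, the share lower at an unadjusted p under 0.05 moved as well. From 13.6% it went to 5.07% after GC correction and to 7.56% to 21.4% with 1 Csk(+/+) library left out. That share also fell in the fits without 1 Csk(f/f)-labelled library, as given above. The median log2 difference of the 48, -0.09, was -0.049 under median-ratio scaling, -0.13 under quantile scaling, -0.013 with GC correction and no Csk(+/+) replicate 3, and -0.12 to -0.086 with 1 library left out.

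The labels do not say that the replicate number marks a shared animal or day, and only 2 numbers are shared, so the numbers were not taken as a pairing. Same-numbered deviations from the group means correlated at -0.13 and 0.11. With 2 Csk(f/f)-labelled libraries those deviations mirror each other, so the correlations could not decide the question. Csk(+/+) replicate 3 shares its number with no Csk(f/f)-labelled library, so a block on replicate number takes it out of the log2 difference. The log2 differences with the block are thus those of the fit without that library, and the setting is no separate support. With the replicate block, 492 genes passed over the whole table, 4 of the 48 among them (Orc2, Mcm4, Rfc1 and Slbp). At an unadjusted p under 0.05, 14 of the 48 were lower (29.2% beside 22.7% of all genes) and 3 higher (6.25% beside 14.1%). The median log2 difference of the 48 was -0.12, as without Csk(+/+) replicate 3. With the replicate block and GC correction, 173 genes passed, 1 of the 48 among them (Mcm4), 7 of the 48 were lower (14.6% beside 10.4% of all genes) and 5 higher (10.4% beside 11.2%), and their median was -0.012.

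Some signs turned with the setting. The log2 difference of Csk, 0.18, became -0.14 after GC correction, -0.074 with the replicate block and GC correction, and -0.075 with GC correction and no Csk(+/+) replicate 3. After GC correction the values that turned were Orc6 0.071, Cdt1 -0.064, Mcm6 0.029, Mcm7 -0.10, Mcm10 0.0012, Gins3 0.077, Gins4 -0.046, Prim2 0.092, Pold1 -0.010, Pole2 0.038, Rfc3 0.25, Rfc4 0.12, Rfc5 -0.051, Rpa2 -0.037, Rpa3 0.28, Rrm1 0.020 and Uhrf1 -0.13. With the replicate block and GC correction they were Orc6 0.070, Cdt1 -0.065, Mcm6 0.063, Mcm7 -0.0038, Mcm10 0.012, Gins3 0.061, Prim2 0.084, Pole2 0.13, Rfc3 0.35, Rfc4 0.21, Rpa3 0.28, Rrm1 0.098, Chaf1a -0.087 and Uhrf1 -0.14. With GC correction and no Csk(+/+) replicate 3 they were Orc6 0.071, Cdt1 -0.064, Mcm6 0.064, Mcm7 -0.0053, Mcm10 0.012, Gins3 0.061, Prim2 0.087, Pole2 0.13, Rfc3 0.36, Rfc4 0.21, Rpa3 0.30, Rrm1 0.10, Chaf1a -0.089 and Uhrf1 -0.15. Under median-ratio scaling they were Mcm3 0.010, Gins2 0.020, Gins3 0.0039 and Pole 0.013, under quantile scaling Gins3 0.071, Gins4 -0.013 and Uhrf1 -0.014, with the replicate block Cdc6 -0.039, Gins2 0.11 and Uhrf1 -0.012, and with array weights Cdc6 -0.023 and Gins2 0.092. With 1 library left out, genes that changed sign ranged over Cdc6 -0.053 to 0.090, Mcm3 -0.079 to 0.018, Gins2 -0.17 to 0.11, Gins3 -0.19 to 0.13, Gins4 -0.086 to 0.11, Pole -0.13 to 0.058, Rfc5 -0.073 to 0.15, Rpa2 -0.016 to 0.14, Chaf1b -0.047 to 0.18, Uhrf1 -0.012 to 0.12 and Dnmt1 -0.25 to 0.12. For results that moved or turned, the cause was not tested.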

Other observations

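The level of replication-dependent histone genes, which are transcribed in S phase, depended on 1 library. Of 68 with Hist1h to Hist4h symbols, 55 were tested and 36 of these were above 0. At an unadjusted p under 0.05, 2 were lower, 3.64% beside 13.6% of all genes, and 4 higher, 7.27% beside 8.07%, and none passed after adjustment. Their median log2 difference was 0.21, and 0.01 after GC correction, for transcripts with a median GC content of 59.4%. Their summed level was 563, 739 and 1699 FPKM in Csk(+/+) and 1326 and 976 FPKM in Csk(f/f)-labelled libraries, so the groups overlapped and Csk(+/+) replicate 3 was highest. Without that library 40 of 53 were above 0, 19 were higher at an unadjusted p under 0.05, 35.8% beside 13.3% of all genes, 2 were lower, 3.77% beside 21.4%, and 11 passed as higher after adjustment with limma, beside 1.26% of all genes. When the GC trend was subtracted too, 19 were higher, 35.8% beside 10.6%, 5 were lower, 9.43% beside 9.86%, and none passed. Of the 11 that passed without Csk(+/+) replicate 3, all but Hist1h2bg have H2A symbols. These mRNAs end in a stem loop instead of a poly(A) tail, near-identical copies share reads, and whether poly(A) RNA was selected is not given in the sources used here. Copies that share reads are counted as separate genes in the shares above.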
